A study of Mus musculus with 6 samples.

Results

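The 10 genes described here encode proteins that neutrophils store in granules or hold in the cytosol as alarmins. They are Lcn2, Ltf, Camp and Ngp of the specific granules, the alarmins S100a8 and S100a9, and Mpo, Elane, Prtn3 and Ctsg of the azurophil granules. They were taken by symbol from a count table of 17469 genes, and all 10 were found in it. They were selected on the rise of Lcn2 in the comparison reported below, to ask whether the other granule genes went with it, so the values of that comparison are given for them as a description, and their calls in the fit across all genes are shown only beside the share called overall. Of the 10, 9 held enough counts to enter the fit across 12701 genes, and Ctsg did not.

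RNA-seq was measured in tdTomato+ cells, called OB (osteoblast) progenitors by the study, that were sorted from cultures of BMSCs (bone marrow stromal cells) of 6-month-old mice. Control mice carried Ocn-Cre, which places Cre under the osteocalcin promoter, and Ai9, a reporter that turns on tdTomato where Cre has acted. TgAPPsweOCN mice carried the same 2 alleles and a human APPswe transgene (Swedish-mutant amyloid precursor protein) behind a stop cassette that Cre removes. Each genotype had 3 libraries, and the study counts as many mice for a group of panels that includes the sequencing. That each library was its own mouse is not stated in the sources used here, so p-values measure the spread between these libraries, which may in part be technical. OCN-Cre is also known to act in some neurons, and the cells were taken after 7 days of culture and 3 days after passage.

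Neutrophils fill their granules in the bone marrow in a fixed order. Promyelocytes make the azurophil granule proteins, which include myeloperoxidase (Mpo) and the serine proteases neutrophil elastase (Elane), proteinase 3 (Prtn3) and cathepsin G (Ctsg). Myelocytes and later stages make the specific granule proteins, which include lactoferrin (Ltf), the cathelicidin precursor (Camp), neutrophilic granule protein (Ngp) and lipocalin-2 (Lcn2). S100a8 and S100a9 form calprotectin, a calcium-binding protein that is abundant in the neutrophil cytosol and is released on injury. Lcn2 is also made by many other cells, among them macrophages, osteoblasts and epithelia, in response to inflammatory cytokines, and it withholds iron from bacteria by binding their siderophores. S100a8, S100a9 and Camp are likewise made by some macrophages and epithelia.

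All 10 genes are protein coding in the RefSeq annotation of GRCm38.p6, the assembly that mm10, the build of the study, is drawn from. Lcn2 lies on the minus strand at chr2:32384637-32387739. Camp (minus strand, chr9:109847377-109849456), Ngp (plus strand, chr9:110419808-110423012) and Ltf (plus strand, chr9:111019292-111042766) follow each other on chromosome 9, with 570351 bases between Camp and Ngp and 596279 bases between Ngp and Ltf. S100a8 (plus strand, chr3:90669071-90670034) and S100a9 (minus strand, chr3:90692630-90695721) are neighbours 22595 bases apart. Prtn3 (plus strand, chr10:79879667-79883174) and Elane (plus strand, chr10:79886312-79888216) lie 3137 bases apart. Mpo is on the plus strand at chr11:87793784-87804412 and overlaps the annotated gene Gm34064. Ctsg is on the minus strand at chr14:56099885-56102574.

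The 250 bases upstream of the start of 3 specific granule genes are shown, since Lcn2 and Camp separated the genotypes and Ngp, which is on the same chromosome as Camp and also belongs to the cathelicidin family, did not. They are RefSeq sequences of GRCm38.p6, written 5′ to 3′ on the strand of the gene. Capitals mark matches to the C/EBP motif TTGCNNAA on either strand. C/EBP factors are known regulators of granule genes.
Lcn2, chr2:32387740-32387989, minus strand: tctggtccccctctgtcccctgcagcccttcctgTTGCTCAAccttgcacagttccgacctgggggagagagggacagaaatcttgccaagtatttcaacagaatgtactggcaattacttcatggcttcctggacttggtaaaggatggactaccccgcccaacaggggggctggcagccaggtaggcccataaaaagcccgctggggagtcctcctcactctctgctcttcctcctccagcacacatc
Camp, chr9:109849457-109849706, minus strand: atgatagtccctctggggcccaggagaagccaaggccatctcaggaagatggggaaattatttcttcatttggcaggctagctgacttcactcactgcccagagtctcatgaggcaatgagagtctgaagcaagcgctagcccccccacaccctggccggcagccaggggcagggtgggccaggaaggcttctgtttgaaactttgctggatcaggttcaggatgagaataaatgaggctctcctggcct
Ngp, chr9:110419558-110419807, plus strand: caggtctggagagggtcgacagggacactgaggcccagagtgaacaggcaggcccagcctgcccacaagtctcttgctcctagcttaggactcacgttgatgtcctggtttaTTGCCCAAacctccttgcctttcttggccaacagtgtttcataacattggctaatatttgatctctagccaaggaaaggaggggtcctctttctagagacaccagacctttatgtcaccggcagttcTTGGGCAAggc
The Lcn2 window held 1 match, starting 216 bases before the gene start, the Ngp window held 2 and the Camp window held 0. Over the 10 genes, 4 windows held the C/EBP motif (Lcn2, Ltf, Ngp and S100a9), against 9.55% of 27025 RefSeq windows of the same length. The PU.1 core GAGGAA was found on either strand in 7 of the 10 windows, against 23.1% of all windows, and it was absent from those of Camp, Ngp and S100a9. The κB consensus was found in 0 of the 10 windows, against 3.75% of all windows. No C/EBP match overlapped a PU.1 core, and a match or its absence describes only the letters of these windows.

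The libraries held between 19340810 and 22037840 estimated counts, and a level of 3 counts, the smallest taken as detectable, lay between 0.136 and 0.155 CPM of the library total. Elsewhere CPM is scaled by TMM, a normalization of library sizes. App, the gene whose human form the transgene carries, had an FPKM (fragments scaled by gene length and mapped fragments) of 279 ± 3.5 (SD, n = 3) in control and 330 ± 4.18 (SD, n = 3) in TgAPPsweOCN libraries (log2 difference 0.45 ± 0.051 SE, edgeR adjusted p = 7.87e-05). Reads were aligned to the mouse build mm10, so this value is no separate measure of the human transgene. Against the label of OB progenitors, markers of macrophages were far above those of osteoblast-lineage cells. Over 10 macrophage markers the summed FPKM was 13830 to 15210 in control and 9693 to 10160 in TgAPPsweOCN libraries, against 134 to 158 and 101 to 168 over 11 stromal and osteoblast markers. Bglap, which encodes osteocalcin, was at 0.857 ± 0.461 and 0.273 ± 0.25 FPKM (SD, n = 3).

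In the comparison of TgAPPsweOCN with control cells, Lcn2 was far higher in every TgAPPsweOCN library, Camp was higher at a low level, S100a8 was not called although its ranges were apart, and the other 7 genes had overlapping ranges. A call asked for an adjusted p at or below 0.05 in edgeR's quasi-likelihood test and a log2 difference of at least 1. Of the 9 genes in the fit, 2 were called higher (Lcn2 and Camp) and 0 lower, where 8.9% of all tested genes were called higher, 9.2% lower and 18.1% either way. That balance depends on the scaling, with 846 genes higher and 1732 lower by library size only, against 1130 and 1169 here. In limma on log2(FPKM + 0.1), which differs in test and measure as well, 811 genes were higher and 1510 lower. Since the genes were chosen on this comparison, nothing is read from these counts. In CPM, every TgAPPsweOCN library was above every control library for Lcn2, Camp and S100a8, a pattern that 34.8% of all tested genes showed, and for 0 of the 9 was every TgAPPsweOCN library below, as for 34.9% of all. The median log2 difference was 0.095 over the 9 genes and 0.043 without Lcn2, beside -0.019 over all tested genes. RNA was measured in bulk, where fewer cells of a type and less RNA per cell cannot be told apart.

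**Figure D1:**
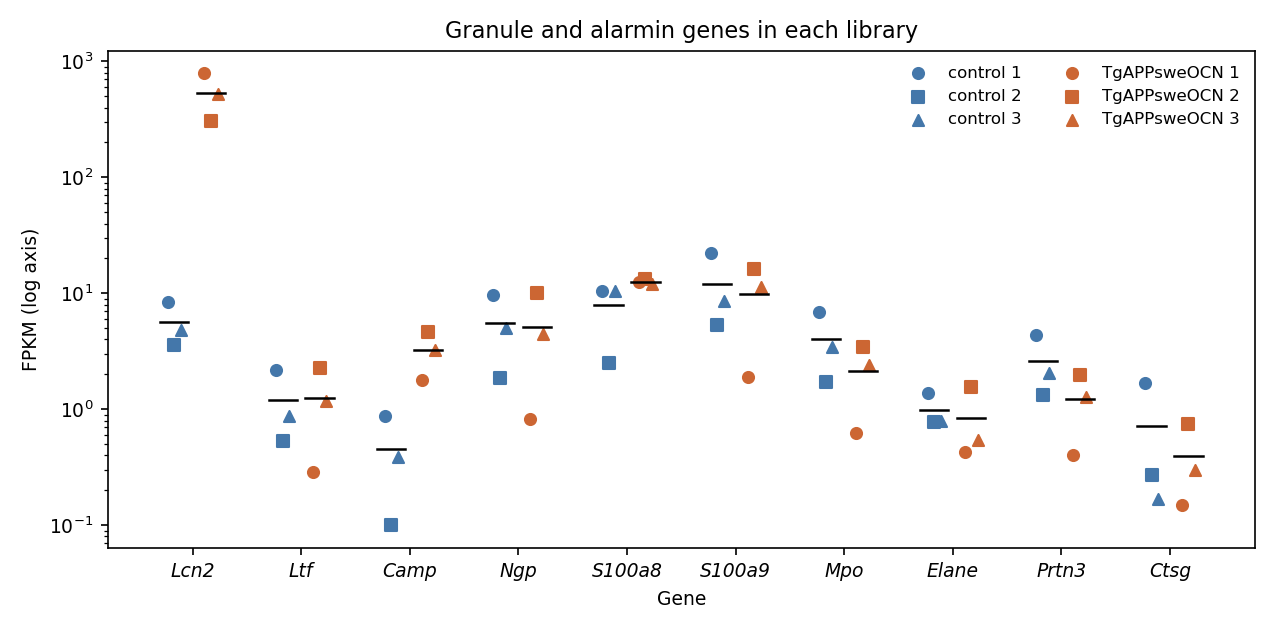
FPKM of the 10 genes (log axis) in each of 3 control (blue) and 3 TgAPPsweOCN (orange) libraries, with symbols for library numbers and black lines for group means. Lcn2 lies between 3.61 and 8.41 in control and between 304 and 789.5 in TgAPPsweOCN libraries, whereas the ranges of Ltf, Ngp, S100a9, Mpo, Elane, Prtn3 and Ctsg overlap.

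Lcn2, the siderophore-binding lipocalin, had 129 counts in control library 1, 56 in library 2 and 73 in library 3, and 13646, 5214 and 8803 counts in TgAPPsweOCN libraries 1, 2 and 3. The lowest TgAPPsweOCN library was far above the highest control library. Per length, this was 5.61 ± 2.5 FPKM (SD, n = 3) in control and 538 ± 243 FPKM (SD, n = 3) in TgAPPsweOCN cells, a ratio of means of 95.8. The fitted log2 difference was 6.81 ± 0.45 (SE), the 21st largest among the 12701 tested genes. In level, Lcn2 went from rank 8116 of all genes by mean FPKM in control cells to rank 123 in TgAPPsweOCN cells. It made up 0.0238% to 0.0619% of all counts in TgAPPsweOCN libraries, against 0.000283% to 0.000657% in control libraries.

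Camp, the precursor of the antimicrobial peptide cathelicidin, had 9, 1 and 4 counts in control and 21, 54 and 37 counts in TgAPPsweOCN libraries. The groups did not overlap, but the control level rested on 14 counts in all, and the single count of control library 2 has an exact Poisson 95% interval of 0.0253 to 5.57 counts, which covers counting error only. Mean FPKM was 0.453 ± 0.389 (SD, n = 3) in control and 3.23 ± 1.43 (SD, n = 3) in TgAPPsweOCN cells, with a fitted log2 difference of 3.02 ± 0.58 (SE). This difference was smaller on the scale of log2(FPKM + 1), at 1.52, and Camp entered the fit only through its TgAPPsweOCN counts, so that it could not be fitted when at least 10 counts were asked of every library.

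Ngp, a cathelicidin-related protein of the same granules, had 208, 40 and 106 counts in control and 20, 242 and 105 counts in TgAPPsweOCN libraries. The ranges overlapped almost completely, and the fitted log2 difference was 0.095 ± 0.76 (SE). In FPKM, Camp stood at 0.0541 to 0.0895 of the level of Ngp in the control libraries and at 0.46 to 2.17 of it in the TgAPPsweOCN libraries. Ltf, which encodes the iron-binding lactoferrin, had 115, 28 and 45 counts in control and 17, 132 and 69 counts in TgAPPsweOCN libraries. Both the lowest and the highest value of Ltf were in TgAPPsweOCN libraries, and the fitted log2 difference was 0.26 ± 0.68 (SE). The 4 genes of the specific granules split into 2 whose genotypes were apart and 2 whose genotypes overlapped.

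S100a8 had 66, 16 and 66 counts in control libraries and 89, 93 and 83 counts in TgAPPsweOCN libraries. All TgAPPsweOCN libraries were above all control libraries and lay close together, at 12.6 ± 0.631 FPKM (SD, n = 3), while the control libraries were at 7.86 ± 4.63 FPKM (SD, n = 3) because library 2 was low. The fitted log2 difference of 0.89 ± 0.41 (SE) was not called, and it was 0.46 without control library 2. S100a9, its partner in calprotectin, had 197, 48 and 76 counts in control and 19, 162 and 110 counts in TgAPPsweOCN libraries. The ranges of S100a9 overlapped, and the fitted log2 difference was -0.094 ± 0.68 (SE). The FPKM ratio of S100a8 to S100a9 was 0.473, 0.47 and 1.22 in control libraries 1, 2 and 3 and 6.59, 0.809 and 1.06 in TgAPPsweOCN libraries 1, 2 and 3. The ratio was thus far from the others in TgAPPsweOCN library 1 alone, where S100a9 was at its lowest count.

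The azurophil granule genes were low in both genotypes and had overlapping ranges. Mpo, which makes hypochlorous acid from hydrogen peroxide, had 334, 85 and 166 counts in control and 34, 188 and 129 counts in TgAPPsweOCN libraries, with a fitted log2 difference of -0.69 ± 0.59 (SE). Prtn3 had 78, 24 and 36 counts in control and 8, 39 and 25 counts in TgAPPsweOCN libraries, with a fitted log2 difference of -0.89 ± 0.56 (SE). For both genes the mean was lower in TgAPPsweOCN cells by less than 2 SE. Elane, the neighbour of Prtn3 on chromosome 10, had 23, 13 and 13 counts in control and 8, 29 and 10 counts in TgAPPsweOCN libraries, and a fitted log2 difference of -0.009 ± 0.51 (SE). Ctsg, a chymotrypsin-like protease, had 31, 5 and 3 counts in control and 3, 15 and 6 counts in TgAPPsweOCN libraries, too few to enter the fit. The summed FPKM of the 4 genes was 14.4, 4.11 and 6.48 in control libraries 1, 2 and 3 and 1.6, 7.73 and 4.52 in TgAPPsweOCN libraries 1, 2 and 3.

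**Figure D2:**
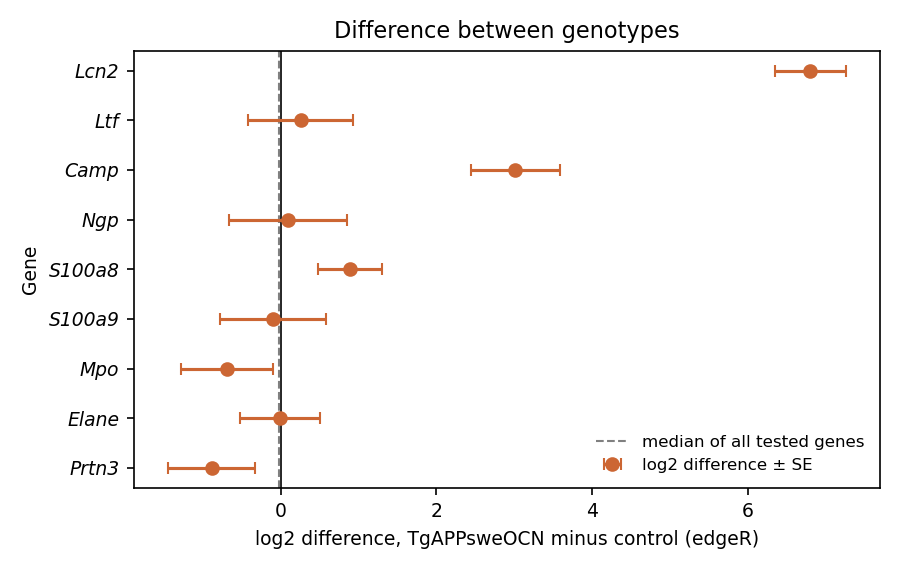
Fitted log2 difference between TgAPPsweOCN and control cells for the 9 genes in the fit (points) with its SE (bars), and the median of all tested genes (dashed line, at -0.019). Lcn2 at 6.81 and Camp at 3.02 stand to the right, and the error bars of Ltf, Ngp, S100a9 and Elane cross 0.

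Ranked by mean FPKM, S100a9 led the 10 genes in control cells, followed by S100a8, Lcn2, Ngp, Mpo, Prtn3, Ltf, Elane, Ctsg and Camp. In this order the ranges of every gene and its next neighbour overlapped between libraries. In TgAPPsweOCN cells the order was Lcn2, S100a8, S100a9, Ngp, Camp, Mpo, Ltf, Prtn3, Elane and Ctsg. There the ranges of Lcn2 and S100a8 were far apart, and those of all other neighbours overlapped. Lcn2 made up 12.3% to 20% of the summed FPKM of the 10 genes in control libraries and 84.8% to 97.7% in TgAPPsweOCN libraries.

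The spread between libraries of a genotype was wide for the granule genes. The median SD of log2 CPM (prior count 2) over the 9 genes in the fit was 0.984 in control and 1.03 in TgAPPsweOCN libraries, against 0.104 in each over all tested genes. The widest was that of Ngp in TgAPPsweOCN libraries 1 and 2, which differed by 12.1-fold in counts, with exact Poisson 95% intervals of 12.2 to 30.9 and 212 to 274 counts. Other intervals overlapped, as for Elane in TgAPPsweOCN libraries 1 and 3 (3.45 to 15.8 and 4.8 to 18.4 counts). Over the 9 genes other than Lcn2, control library 1 was the highest control library for 8 and control library 2 the lowest for 8. TgAPPsweOCN library 1 was the lowest TgAPPsweOCN library for 8 of them and TgAPPsweOCN library 2 the highest for 9. All of these held for 7 of the 9 genes (all but S100a8 and Ctsg), and for 6.58% of all tested genes. The order was read from these same genes, so the share is a description, and Elane counts among them although control libraries 2 and 3 tie at 13 counts and differ only after scaling. Over the 7 genes whose genotypes overlapped, a choice made after their values were seen, the summed counts were 986, 243 and 445 in control and 109, 807 and 454 in TgAPPsweOCN libraries.

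The lowest of these sums was in TgAPPsweOCN library 1 and the highest in control library 1, and the genotype difference of these genes moved with the libraries included. The median log2 difference over the 9 genes other than Ctsg was 0.784 without control library 1 and 0.598 without TgAPPsweOCN library 1, but -0.661 without TgAPPsweOCN library 2. The difference of Ngp ran from -0.85 without TgAPPsweOCN library 2 to 0.78 without control library 1, and those of Ltf (-0.47 to 1.03), S100a9 (-0.66 to 0.69) and Elane (-0.78 to 0.31) changed sign over the same 2 omissions. The differences of Mpo (-1.19 to -0.06) and Prtn3 (-1.40 to -0.28) were negative throughout. That of Lcn2 was 7.21 without control library 1 and that of Camp was 3.88.

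Within the TgAPPsweOCN genotype Lcn2 ran in the reverse order, highest in library 1 and lowest in library 2. The ratio of its FPKM to the summed FPKM of the other 9 genes was 0.141, 0.25 and 0.15 in control libraries 1, 2 and 3. In TgAPPsweOCN libraries 1, 2 and 3 it was 41.7, 5.6 and 14.2. In control libraries Lcn2 shared the order of Ltf, Camp, Ngp, S100a9, Mpo, Elane and Prtn3, and in TgAPPsweOCN libraries it shared the order of none of them. With 3 libraries a genotype, this is a description of these libraries.

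**Figure D3:**
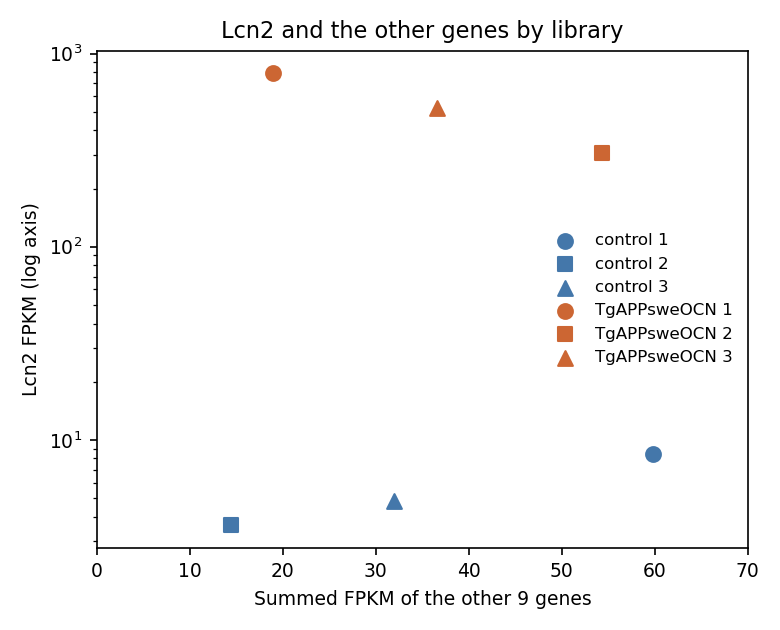
FPKM of Lcn2 (log axis) against the summed FPKM of the other 9 genes in each library, control in blue and TgAPPsweOCN in orange. The other 9 genes span 14.4 to 59.8 in control and 18.9 to 54.3 in TgAPPsweOCN libraries, and among the latter the library with the lowest sum has the highest Lcn2 value of 789.5.

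Markers of other cell types were read beside these genes. Of 12 neutrophil lineage genes, 11 were in the table and 3 entered the edgeR fit, of which 0 were called and 1 had an unadjusted p under 0.05. DESeq2, run without that filter on low counts, called 1 of the list higher, Wfdc21. Csf3r, the G-CSF receptor, passed the adjusted p but not the fold threshold (log2 difference 0.27 ± 0.10 SE, edgeR adjusted p = 0.0469), and its counts were in part fractional. It made up most of the summed FPKM of the list, 41.8 to 55.2 in control and 48.2 to 53.4 in TgAPPsweOCN libraries. Several defining markers of mature neutrophils were near 0, but Cxcr2, a chemokine receptor of these cells, had 34.9, 43.3 and 38.8 estimated counts in control and 45, 35.8 and 24.8 in TgAPPsweOCN libraries (log2 difference -0.09 ± 0.26 SE, edgeR adjusted p = 0.789). Ly6g had 0, 0 and 0 counts in control and 0, 1 and 1 counts in TgAPPsweOCN libraries, Retnlg had 1 count in all 6 libraries together, and Cxcr1 had at most 2 counts in a library. Wfdc21, with 3, 1 and 4 counts in control and 6, 18 and 12 counts in TgAPPsweOCN libraries, and the regulator Gfi1, with 6, 1 and 1 and 10, 11 and 7 counts, were not in the fit and had higher counts in every TgAPPsweOCN library.

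The order of libraries described above held for 3 of 3 monocyte markers, which were Ly6c2, Ccr2 and F13a1. The counts of Ly6c2 and Ccr2 were in part fractional. F13a1, coagulation factor XIII A, had 3473, 1409 and 2337 counts in control and 337, 777 and 504 counts in TgAPPsweOCN libraries. The summed FPKM of the 3 markers was 61.9, 24.1 and 42.4 in control libraries 1, 2 and 3 and 7.61, 26.5 and 14.5 in TgAPPsweOCN libraries 1, 2 and 3, the library order of 7 of the 9 granule genes other than Lcn2. Among 22 other granule genes with counts in both genotypes, that order held for 4 (18.2%), and among 9 such neutrophil lineage genes for 1 (11.1%), although 9 of the 11 lineage genes in the table had a mean below 20 counts. Between genotypes 2 of the 3 were called lower, the chemokine receptor Ccr2 (log2 difference -1.49 ± 0.53 SE, edgeR adjusted p = 0.0369) and F13a1 (-2.11 ± 0.36 SE, adjusted p = 0.000971), while Ly6c2 had a difference of 0.82 ± 0.53 (SE, adjusted p = 0.206). The ranges of Ccr2 overlapped, and DESeq2 called 1 of the 3 lower, F13a1. Their part in the values of the granule genes was not tested. The order held for 1 of 10 macrophage markers, of which 3 were called higher and 4 lower. Over all tested genes 8.9% were called higher and 9.2% lower.

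**Figure D4:**
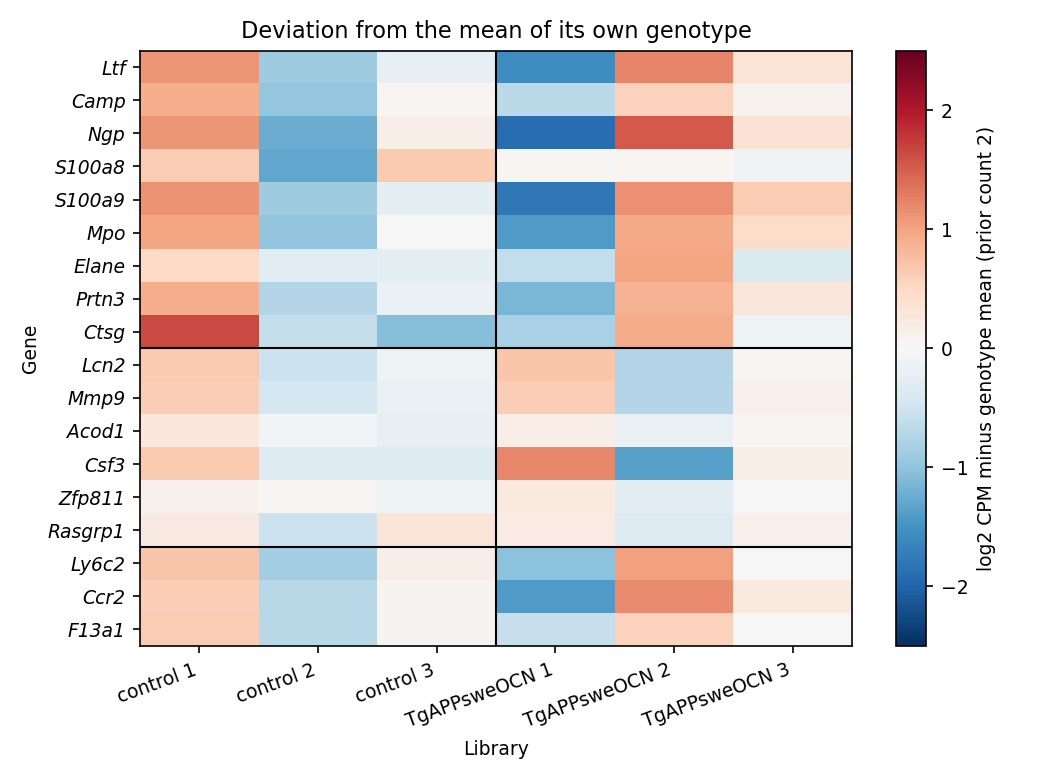
Deviation of log2 CPM from the mean of the gene's own genotype, by library (columns), for the 9 genes other than Lcn2 (top block), Lcn2 with the 5 genes nearest to it (middle block) and 3 monocyte markers (bottom block), red above and blue below the mean. In TgAPPsweOCN library 1 Ngp is at -1.9 and Ccr2 at -1.42, while Lcn2 is at 0.69.

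Markers of further cell types were low, apart from the platelet gene list. The summed FPKM in control and TgAPPsweOCN libraries was at most 0.95 and 0.78 for mast cells and basophils, 1.19 and 1.64 for eosinophils, 3.01 and 4.69 for B cells, 0.68 and 0.54 for T cells, 0.1 and 0.58 for erythroid cells and 5.89 and 5.98 for endothelium. The megakaryocyte list, led by the chemokine gene Pf4, was at 527 to 637 in control and 117 to 266 in TgAPPsweOCN libraries. In these lists Cd79b of B cells (log2 difference 1.75, edgeR adjusted p = 0.000127), Pecam1 of endothelium (1.03, adjusted p = 0.000116) and Siglecf of eosinophils (1.01, adjusted p = 0.0047) were called higher and Pf4 lower (-1.39, adjusted p = 0.00169). Of 10 stromal markers in the edgeR fit, 0 were called, 4 had an unadjusted p under 0.05 and 3 passed the adjusted p alone, and DESeq2 called 0.

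The 5 genes whose log2 CPM profile over the 6 libraries, centred on its mean, was nearest to that of Lcn2 were Mmp9, Acod1, Csf3, Zfp811 and Rasgrp1, at Euclidean distances of 0.721 to 1.12. None was among the genes described, of which the 8 others in the fit were at 5.33 (Camp), 7.07 (S100a8) and between 8.7 and 9.68. Each profile spans both genotypes, so these distances mostly restate the genotype comparison on which the genes were chosen, and they are a description only. Mmp9, the gelatinase of neutrophil granules and of macrophages and osteoclasts, had 167, 81 and 96 counts in control and 11604, 4719 and 8374 counts in TgAPPsweOCN libraries. Its libraries ranked as those of Lcn2 in both genotypes. Acod1, which makes itaconate in activated macrophages, had 74, 59 and 52 counts in control and 5744, 4685 and 5269 counts in TgAPPsweOCN libraries. Csf3, the cytokine G-CSF that drives granulopoiesis, had 2, 0 and 0 counts in control and 412, 71 and 199 counts in TgAPPsweOCN libraries. All 5 genes were highest in TgAPPsweOCN library 1 and lowest in library 2, an order that their choice by likeness to Lcn2 over these libraries favours.

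Genes around the 10 were read from 7 further lists, of other granule genes, neutrophil lineage genes, other alarmins, receptors, cytokines and regulators, protease inhibitors and acute phase genes. These hold 98 genes, of which 93 were in the table and 64 in the fit, with 25 called higher, 3 lower, 16 past the adjusted p alone and 20 neither, beside 8.9% called higher and 9.2% lower over all tested genes. The lists were chosen with earlier results of these data known. Among the called genes Mmp25, Il1a, Il6, Csf3, Slpi, Serpinb1a, Nos2 and Steap4 would not have entered the fit on control counts alone. The numbers called higher thus include genes let in by counts of the group where they are high.

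Of 24 other granule genes, 12 entered the fit and 6 rose. The largest rises were those of Mmp9 (log2 difference 6.23 ± 0.41 SE, edgeR adjusted p = 3.91e-06), Chil1, a chitinase-like protein (4.87 ± 0.26 SE, adjusted p = 1.04e-06), and the membrane-bound protease Mmp25 (3.88 ± 0.35 SE, adjusted p = 2.21e-05). The call of Mmp25, with 7 control counts in all, was lost in limma on log2(FPKM + 1). Hp, the haemoglobin-binding haptoglobin, rose by 2.53 ± 0.27 (SE, adjusted p = 5.33e-05) and Slc11a1, a metal transporter of phagosomes, by 1.86 ± 0.06 (SE, adjusted p = 8.91e-08). Cybb, a subunit of the phagocyte oxidase that macrophages also make, rose by 1.14 ± 0.17 (SE, adjusted p = 0.000352), a call lost without TgAPPsweOCN library 1 and in 3 other alternatives. Lyz2, the lysozyme of macrophages and neutrophils, had the highest level, 9057 ± 190 FPKM in control and 6977 ± 1677 FPKM in TgAPPsweOCN cells (SD, n = 3), and a log2 difference of -0.16 (adjusted p = 0.418). The collagenase Mmp8, with 222, 231 and 210 counts in control and 193, 181 and 193 counts in TgAPPsweOCN libraries, was not called. The 12 genes outside the fit, among them Bpi, Ms4a3, Olfm4, Fcnb and Cd177, which in marrow belong to neutrophils and their precursors, had at most 15 counts in any library.

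**Figure D5:**
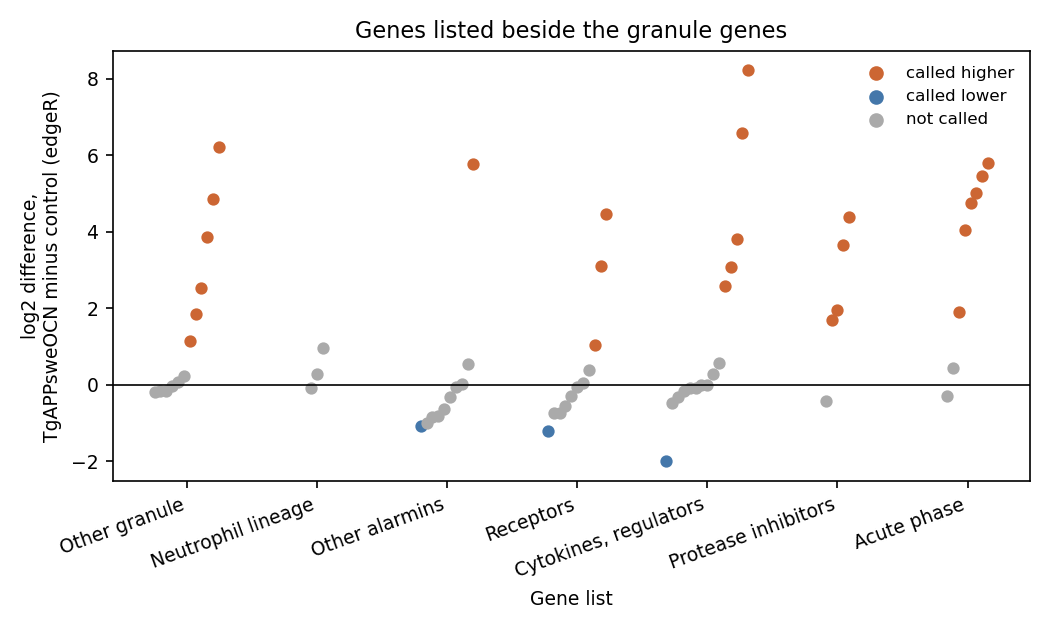
Fitted log2 difference between TgAPPsweOCN and control cells (vertical axis) for the 64 genes in the fit of 7 lists (horizontal axis), coloured where called higher (orange) or lower (blue) and grey otherwise. In the acute phase list 6 of 8 genes were called higher, and in the neutrophil lineage list 0 of 3.

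Among other alarmins, 10 of 14 entered the fit, 1 rose, 1 fell and 5 passed the adjusted p alone. The cytokine gene Il1a had 5, 10 and 10 counts in control and 785, 84 and 449 counts in TgAPPsweOCN libraries (log2 difference 5.77 ± 0.92 SE, edgeR adjusted p = 0.000634). It would not have entered the fit on its control counts alone. S100a4 fell by 1.06 on the log2 scale (SE 0.11, adjusted p = 4.67e-05), from 379 ± 57.7 to 156 ± 10.8 FPKM (SD, n = 3), and its call was lost without control library 2 or TgAPPsweOCN library 3. S100a1 (-0.996), S100a6 (-0.85), Hmgb1 (-0.82) and S100a16 (-0.64) had lower values and S100a11 (0.54) a higher one, all within the fold threshold. The median log2 difference of the list was -0.48.

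Of 13 receptor genes, 11 entered the fit, 3 rose, 1 fell and 4 passed the adjusted p alone. The formyl peptide receptors Fpr1 and Fpr2, which detect bacterial and mitochondrial peptides, rose by 4.46 ± 0.16 (SE, adjusted p = 1.79e-07) and 3.11 ± 0.20 (SE, adjusted p = 3.07e-06) on the log2 scale. Cd36, a scavenger receptor, rose by 1.05 ± 0.14 (SE, adjusted p = 0.000202), a call lost without library 1 of either genotype and in 3 other alternatives. Emb, an immunoglobulin-family membrane protein that binds S100A8, fell by 1.21 (SE 0.07, adjusted p = 1.83e-06). Slc22a17, the lipocalin-2 receptor, was at 0.96 ± 0.358 FPKM in control and 0.5 ± 0.0361 FPKM in TgAPPsweOCN cells (SD, n = 3; adjusted p = 0.0492, below the fold threshold). Tlr4, the endotoxin receptor that calprotectin also engages, had a log2 difference of -0.29 (adjusted p = 0.0109), and Cd14, the highest of the list at 377 ± 44.8 and 309 ± 79 FPKM (SD, n = 3), one of -0.07 (adjusted p = 0.766).

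Of 16 cytokines and regulators known to act on Lcn2 or granule genes, 15 entered the fit, 5 rose, 1 fell and 5 passed the adjusted p alone. Csf3, Il6, Nfkbiz, Il1b and Tnf rose. Il6 had 4, 1 and 5 counts in control and 488, 176 and 287 counts in TgAPPsweOCN libraries (log2 difference 6.58 ± 0.58 SE, edgeR adjusted p = 1.83e-05). On its control counts alone Il6 would not have entered the fit. Nfkbiz, which encodes IκBζ, a cofactor of NF-κB at the Lcn2 gene, rose from 19.2 ± 3.2 to 232 ± 26.3 FPKM (SD, n = 3; log2 difference 3.81 ± 0.15 SE, adjusted p = 2.25e-07). Il1b rose by 3.08 ± 0.43 (SE, adjusted p = 0.000296) and Tnf by 2.59 ± 0.12 (SE, adjusted p = 4.55e-07). The fitted difference of Csf3, 8.23 ± 1.07 (SE, adjusted p = 0.000194), rested on 2 control counts in all and depends on the prior count. Cebpa, a regulator of early granulocyte differentiation, fell by 1.99 on the log2 scale (SE 0.08, adjusted p = 1.96e-07). Cebpb (0.003, adjusted p = 0.989) was not called, Cebpd (0.58, adjusted p = 0.000115) was within the fold threshold, and Cebpe, which drives specific granule genes in neutrophils, had at most 7 counts in a library.

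The protease inhibitors include those that hold the azurophil proteases in check. Of 8 listed, 5 entered the fit and 4 rose. Slpi, the secretory leukocyte peptidase inhibitor, had 12, 13 and 8 counts in control and 200, 80 and 122 counts in TgAPPsweOCN libraries (log2 difference 3.65 ± 0.41 SE, edgeR adjusted p = 7.56e-05). Serpina3g rose by 4.38 ± 0.62 (SE, adjusted p = 0.000312) and Serpina3n by 1.70 ± 0.26 (SE, adjusted p = 0.000463), with counts in part fractional, as these genes have near-identical copies. Serpinb1a, an inhibitor of Elane, Prtn3 and Ctsg, had 12, 1 and 1 counts in control and 10, 23 and 20 counts in TgAPPsweOCN libraries (1.95 ± 0.74 SE, adjusted p = 0.0456), and its call was lost in 7 of the alternatives. Serpinb6a, the most abundant, was at 372 ± 9.1 and 241 ± 8.97 FPKM (SD, n = 3), a log2 difference of -0.41 (adjusted p = 0.000217).

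Of 11 acute phase and inducible innate genes, 8 entered the fit, 6 rose and 0 fell, with a median log2 difference of 4.40 beside -0.019 over all tested genes. Saa3, a serum amyloid A of macrophages and fat, had 1631, 597 and 948 counts in control and 76946, 39265 and 53088 counts in TgAPPsweOCN libraries (log2 difference 5.80 ± 0.43 SE, edgeR adjusted p = 6.87e-06). The libraries of Saa3 ranked as those of Lcn2 in both genotypes. Complement factor B (Cfb) rose by 5.46 ± 0.26 (SE, adjusted p = 5.99e-07), the nitric oxide synthase Nos2 by 5.02 ± 0.32 (SE, adjusted p = 3.13e-06), the metalloreductase Steap4 by 4.76 ± 0.62 (SE, adjusted p = 0.000198) and the ferroxidase ceruloplasmin (Cp) by 4.05 ± 0.21 (SE, adjusted p = 9.43e-07). The call of Steap4, with 4 control counts in all, was lost in limma on log2(FPKM + 1). Nos2, with 9, 2 and 5 counts in control libraries, and Steap4 would not have entered the fit on control counts alone. The count of rises and the median of this list include both. Complement C3 rose by 1.90 ± 0.26 (SE, adjusted p = 0.000282).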

How the data were processed

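The authors sequenced libraries on a DNBSEQ-G400, filtered out adaptor, low-quality and rRNA reads and aligned the rest to mm10; the submitters' processing notes name HISAT2 2.0.4, Bowtie2 2.2.5, RSEM 1.2.12 and DESeq2 1.4.5, and the annotation is not given in the sources used here. The authors deposited estimated counts, fractional for 13.3% to 14.4% of genes per library but whole for all 10 genes described, and FPKM values. RNA qualified at a low integrity minimum, which can make levels noisier. A second deposited table of 15656 genes repeats these FPKM values (all 93936 equal within rounding) beside the authors' log ratios and p-values, which were not used.

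Rounded estimated counts of all 6 libraries were filtered with filterByExpr, scaled by TMM and tested by genotype with edgeR's quasi-likelihood test (edgeR 4.0.16, R 4.3.3) and Benjamini-Hochberg adjustment. The methods of the study state the thresholds and name DEseq2. Library totals were 19340810 to 22037840. SE is that of the fitted log2 difference. Named genes were the 10 members, in each further list the called genes up to the 5 with the largest difference and the gene with the highest FPKM, and the 5 genes nearest to Lcn2. Others (among them the genes outside the fit, those past the adjusted p alone, Mmp8 and the monocyte markers) were named after their values were seen. The members and lists were chosen with earlier results of these data known, and 1 marker gene is not reported here. Alternatives were RLE size factors, library size only, DESeq2 1.42.0, other filters on low counts, a replicate block, limma 3.58.1 on log2(FPKM + 1) and log2(FPKM + 0.1), no fold change threshold and each library left out. The fits were tested on simulated counts that vary less between libraries than most of the 10 genes, so that test does not cover these genes. Promoters came from RefSeq. Python 3.11.15, pandas 2.3.3, scipy 1.17.1 and matplotlib 3.10.9 were used.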

Additional observations from a re-analysis of the deposited data

How the results depend on the processing

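Over the alternatives run, the log2 difference was 6.31 to 7.21 for Lcn2 and 1.52 to 3.88 for Camp, which is a description, since the genes were chosen on this comparison. The count of the 10 genes called higher was 1 in place of 2 when at least 10 counts were asked of every library, because Camp was then not in the fit. Over the further lists 3 genes were called lower, against 6 with scaling by library size only, 6 in limma on log2(FPKM + 1), 6 in limma on log2(FPKM + 0.1) and 14 with no fold change threshold. Over all genes 593 were called higher and 845 lower in limma on log2(FPKM + 1). With no fold change threshold 4122 were called higher and 4007 lower. Scaling by library size only moved the median log2 difference of all genes from -0.019 to -0.234, and limma moved it to -0.161 and -0.219, so differences of low members are to be read against that shift. Leaving out 1 library at a time gave a median over the 9 genes other than Ctsg of -0.661 to 0.784.

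The labels do not say whether same-numbered libraries belong together. Their deviations from the genotype mean correlated at 0.0127, 0.00664 and 0.141. Differently numbered libraries were not compared in this way, so pairing is not settled. With a replicate block 1115 genes were called higher and 1147 lower, and Lcn2 differed by 6.79 and Camp by 2.97 on the log2 scale. At these depths the intervals of single counts are wide where counts are few, as for Camp in control libraries.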
